A study of Mus musculus with 9 samples.

Results

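The genes described here are 10 mouse genes that set the pace of the G1 phase of the cell cycle: the D-type cyclins Ccnd2 and Ccnd3, the E-type cyclins Ccne1 and Ccne2, the kinases Cdk4 and Cdk6, and the kinase inhibitors Cdkn1a, Cdkn1b, Cdkn2c and Cdkn2d. They were chosen by name, with earlier results of these data known, and each was found once among the 49671 genes of the count table. RNA of splenic CD3+ T cells was sequenced from female F1 mus x cast mice in 3 groups of 3 libraries. Unstimulated cells went into TRIzol directly after enrichment on CD3+ T cell columns. Stimulated cells were cultured for 48 hours on plate-bound anti-CD3 (1 µg/ml) with soluble anti-CD28 (10 µg/ml), which together mimic antigen and costimulation. The inhibitor group had the same culture and stimulation with 2.5 µM IMD-0354, an inhibitor of the kinase IKK-beta that activates NF-kB. All 3 groups shared the hybrid background: C57BL/6 mothers carrying a heterozygous Xist deletion were mated to castaneus males, which skews the choice of the inactive X chromosome. The labels name neither a vehicle for the compound nor cells cultured without antibodies, so culture and stimulation cannot be told apart. The animals' age is not given in the sources used here. Replicates are labelled as biological, but no label states that each is a different animal; the p-values therefore speak of the spread between these libraries, part of which may be technical.

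A resting T cell sits outside the cycle. After activation, D-type cyclins bind CDK4 or CDK6, and E-type cyclins bind CDK2. These kinases phosphorylate the retinoblastoma family of pocket proteins, which releases E2F factors to transcribe genes for DNA replication. INK4 proteins, here p18 (Cdkn2c) and p19 (Cdkn2d), bind CDK4 and CDK6 and keep cyclin D away. CIP/KIP proteins, here p21 (Cdkn1a) and p27 (Cdkn1b), block cyclin E with CDK2, and they can also help cyclin D and CDK4 to assemble. Much of the control in this pathway acts on protein stability and phosphorylation, which RNA counts do not show.

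Total counts ranged from 34009988 to 56221174 per library. Levels below are CPM, which are counts per library size after TMM scaling, in libraries 1, 2 and 3 of a group, or mean ± SD with n = 3. As these are bulk samples, fewer cells of a type and less RNA per cell cannot be told apart. The summed level of 12 T cell markers was 1930.4 to 3006 CPM in the unstimulated, 2226 to 2344 CPM in the stimulated and 2352 to 2452 CPM in the inhibitor libraries, and none of the marker genes Cd3d, Cd3e and Lck was near 0. Single markers did not stay level: 3 of the 12 rose and 6 fell with stimulation, where 32.0% of all genes tested rose and 34.0% fell. Without unstimulated library 2 these marker counts were 2 and 7. Markers of other cells were higher in the unstimulated libraries: 10 B cell markers summed to 1002 to 2892 CPM there, against 79.5 to 88.9 CPM in the stimulated and 154 to 161 CPM in the inhibitor libraries. Likewise, 10 myeloid and dendritic markers summed to 1064 to 2085 CPM, against 67.3 to 73.2 CPM and 102 to 128 CPM, and 6 NK cell markers to 264 to 318 CPM, against 59.3 to 66.0 CPM and 37.9 to 52.9 CPM. All of these B cell, myeloid, dendritic and NK markers fell from the unstimulated to the stimulated group. Unstimulated library 2 held 1.90 times the mean B cell sum of libraries 1 and 3 and 2.83 times their erythroid and platelet sum. It held 2.38 times their sum of S phase and mitosis genes and 0.698 times their T cell sum. Unstimulated library 3 differed from libraries 1 and 2 as well, with 0.406 times their mean B cell sum and 0.149 times their erythroid and platelet sum. Its S phase and mitosis sum was 0.522 times theirs and its T cell sum 1.35 times. Inhibitor library 1 had counts for 30106 genes, against 20547 to 23223 in the other 8 libraries. Tested changes of single genes below are also given without unstimulated library 2 or inhibitor library 1 where leaving it out changed the call or moved the fold by over 1.5 times.

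All 10 genes passed the filter on low counts. A gene is said to have risen or fallen where edgeR's quasi-likelihood test over 18374 genes gave a Benjamini-Hochberg adjusted p below 0.05, and a ± after a log2 fold change is an approximate SE (the log2 value divided by the root of its F statistic). From the unstimulated to the stimulated group 6 of the 10 rose and 1 fell, where 32.0% of all genes tested rose and 34.0% fell. The 6 were Ccne1, Ccne2, Cdk4, Cdk6, Cdkn1a and Cdkn2d, and the 1 that fell was Cdkn1b. Between the stimulated and the inhibitor group 8 of the 10 were lower with IMD-0354 and 1, Ccnd2, was higher, where 22.8% of all genes were lower and 21.7% higher. The 6 that rose with stimulation were among the 8, and so were Ccnd3 and Cdkn2c, which were not called for stimulation. Set against the unstimulated group, the inhibitor group had 4 of the 10 higher (Ccnd2, Cdk4, Cdk6 and Cdkn1a) and 4 lower (Ccnd3, Cdkn1b, Cdkn2c and Cdkn2d), with 26.3% of all genes higher and 26.1% lower. The median log2 fold changes of the 10 genes were 1.35, -1.27 and 0.57 in these 3 comparisons, and those of all genes tested were -0.05, 0.03 and -0.001. The comparisons share libraries and are therefore not independent of each other. As the 10 were chosen with earlier results of these data known, their counts beside the shares of all genes are no test of the list. Without unstimulated library 2 the counts became 7 higher and 1 lower for stimulation, and 6 higher and 3 lower for the inhibitor group against the unstimulated one. Without inhibitor library 1 the counts were 6 lower and 1 higher between the inhibitor and stimulated groups. Leaving out certain other libraries also lost the calls of Ccne1 and Ccne2 between these groups, and that of Cdkn2c between the inhibitor and unstimulated groups, as given below.

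**Figure D1:**
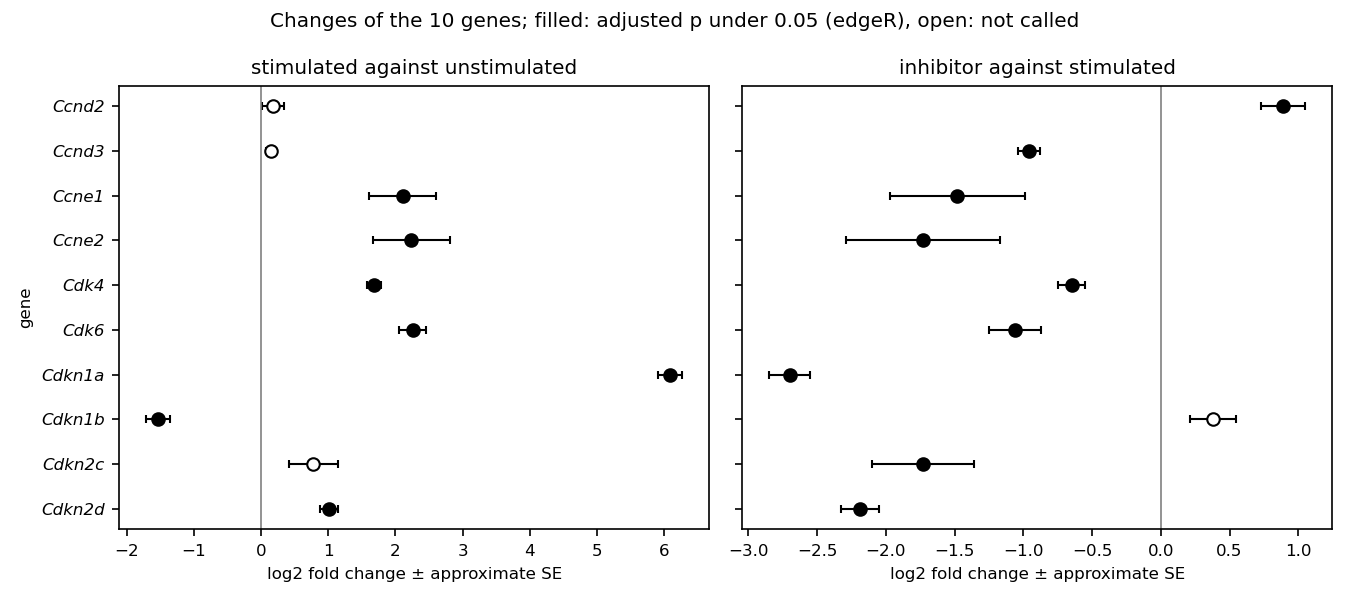
Log2 fold changes of the 10 genes (points) with their approximate SE (bars) for stimulated against unstimulated and inhibitor against stimulated, from edgeR's quasi-likelihood fit of all 9 libraries. Cdkn1a has the largest change of the 10 in both comparisons, 6.09 and -2.70, and Ccnd2 is the member that was higher in the inhibitor than in the stimulated group.

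The D-type cyclins are the sensors of the pathway, since their genes respond to growth signals. Ccnd2 (ENSMUSG00000000184, mm10 chr6:127125162-127152193, minus strand) was at 702, 469 and 742 CPM in the unstimulated libraries, at 810.4, 712 and 642 CPM in the stimulated and at 1332, 1342 and 1328 CPM in the inhibitor libraries. The unstimulated and stimulated libraries overlapped, while the 3 inhibitor libraries lay close together above all others. Stimulation left a log2 fold change of 0.18 ± 0.16 (edgeR adjusted p = 0.340), and its sign turned to -0.05 with upper-quartile scaling, -0.003 with library totals and -0.002 without unstimulated library 2. In the inhibitor group Ccnd2 was 1.85-fold higher than in the stimulated group (log2 0.89 ± 0.16, edgeR adjusted p = 0.00139) and 2.09-fold higher than in the unstimulated group (log2 1.06 ± 0.16, edgeR adjusted p = 3.1e-04).

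Ccnd3 (ENSMUSG00000034165, chr17:47505051-47599691, plus strand), the D-type cyclin needed for expansion of immature T cells, went the other way under the inhibitor. Its levels were 308, 308 and 291 CPM unstimulated, 330.4, 327 and 347 CPM stimulated, and 155, 178 and 185 CPM with IMD-0354. The stimulated libraries were all above the unstimulated ones by a small margin (log2 0.15 ± 0.08, edgeR adjusted p = 0.131), but the sign depended on the scaling: -0.07 with upper quartiles and -0.04 with library totals. With the inhibitor Ccnd3 fell 1.94-fold against the stimulated group (log2 -0.96 ± 0.08, edgeR adjusted p = 1.4e-05) and lay 1.75-fold below the unstimulated group (log2 -0.81 ± 0.08, edgeR adjusted p = 2.0e-05).

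The E-type cyclins act after the D-type cyclins and carry the cell into S phase. Ccne1 (ENSMUSG00000002068, chr7:38097984-38107534, minus strand) was at 6.77, 24.8 and 5.05 CPM unstimulated, 46.7, 56.1 and 54.8 CPM stimulated, and 15.3, 17.8 and 23.3 CPM with the inhibitor. Ccne2 (ENSMUSG00000028212, chr4:11191351-11204779, plus strand) was at 4.92, 15.1 and 2.33 CPM, then 47.3, 28.6 and 29.5 CPM, then 9.87, 7.06 and 14.9 CPM. Both were highest in every stimulated library, and in both, unstimulated library 2 stood well above its group and above all inhibitor libraries, while unstimulated libraries 1 and 3 lay below them. Ccne1 rose 4.31-fold with stimulation (log2 2.11 ± 0.50, edgeR adjusted p = 0.00373) and Ccne2 4.72-fold (log2 2.24 ± 0.57, edgeR adjusted p = 0.00598). Without unstimulated library 2 these log2 values were 3.16 (edgeR adjusted p = 1.2e-06) and 3.29 (edgeR adjusted p = 8.1e-05).

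With IMD-0354 Ccne1 was 2.79-fold lower than in the stimulated group (log2 -1.48 ± 0.49, edgeR adjusted p = 0.0311) and Ccne2 3.32-fold lower (log2 -1.73 ± 0.56, edgeR adjusted p = 0.0299), with no overlap between the groups. These calls were close to the threshold. The one for Ccne1 was lost on leaving out any of the stimulated libraries, inhibitor library 1 or inhibitor library 2, and the one for Ccne2 on leaving out stimulated library 1 or 3 or inhibitor library 1 or 2; over all 20 alternatives the adjusted p ranged from 1.5e-09 to 0.0905 and from 8.5e-10 to 0.101. Against the unstimulated group the inhibitor group differed by 0.63 ± 0.48 for Ccne1 (edgeR adjusted p = 0.306) and by 0.51 ± 0.56 for Ccne2 (edgeR adjusted p = 0.473). Without unstimulated library 2 those differences were 1.67 (edgeR adjusted p = 9.9e-05) and 1.56 (edgeR adjusted p = 0.00884), so that leaving out 1 library changed both calls. Ccne1 also passed with no filter on low counts (edgeR adjusted p = 0.0166).

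**Figure D2:**
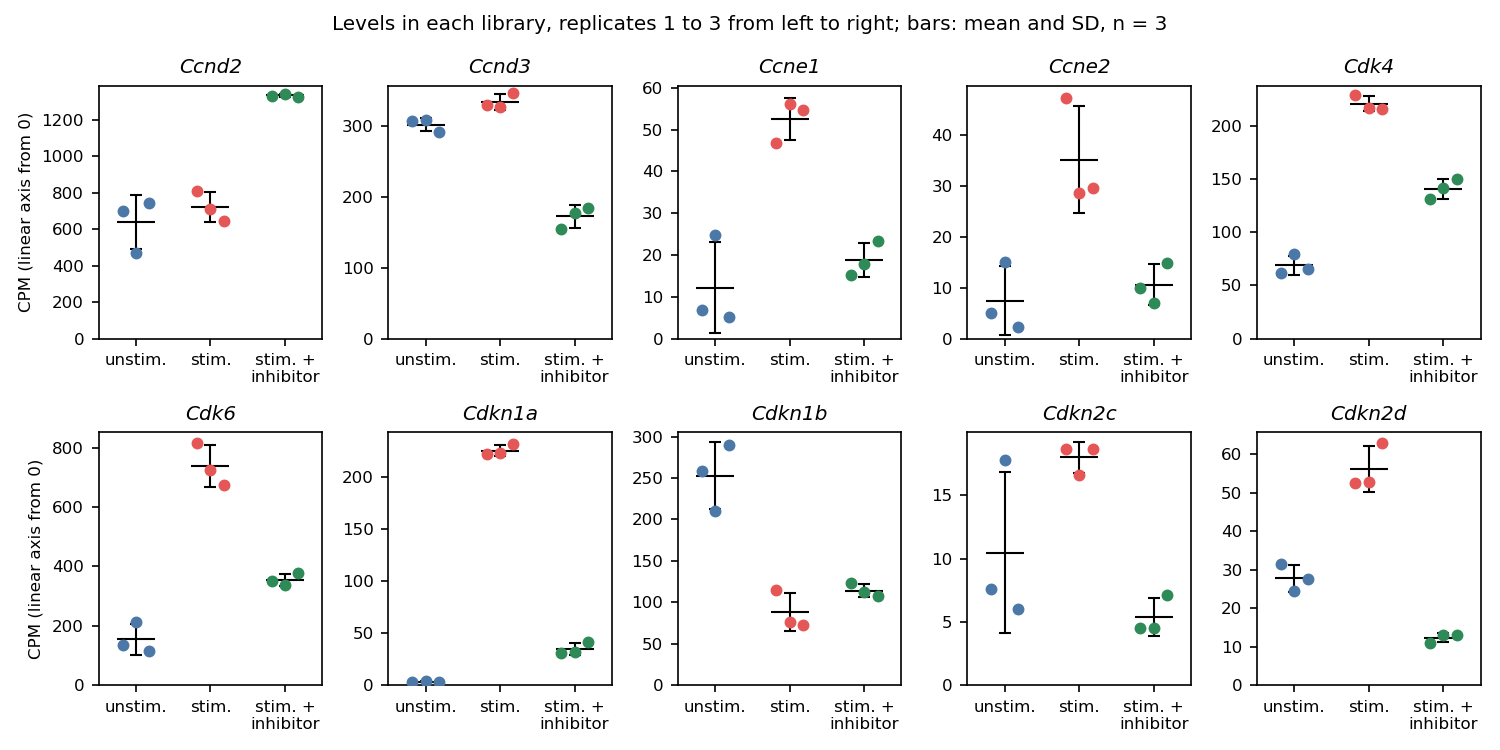
CPM of each of the 10 genes in every library (points, linear axes from 0) by group, with bars for the mean and SD (n = 3). Cdkn1a separates the 3 groups completely, as do Ccnd3, Cdk4, Cdk6 and Cdkn2d. Unstimulated library 2 is the high point of its group for 7 of the 10 genes, by the largest ratios for Ccne1, Ccne2, Cdkn2c and Cdk6.

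Cdk4 and Cdk6 encode the catalytic partners of the D-type cyclins. RefSeq (GRCm38.p6) starts were at hand for 8 of the 10 genes, all but Ccnd2 and Ccne2. In these, 6 short motifs were searched on both strands of the 250 bases before each start. The promoters of the 2 kinase genes are shown because they were the members' only windows with the E-box CACGTG, the palindrome that MYC binds with MAX and the level of Myc in these libraries is given beside them below. Capitals mark the E-boxes, and both sequences are plus strand, chr10:127063285-127063534 for Cdk4 and chr5:3343643-3343892 for Cdk6.
Cdk4: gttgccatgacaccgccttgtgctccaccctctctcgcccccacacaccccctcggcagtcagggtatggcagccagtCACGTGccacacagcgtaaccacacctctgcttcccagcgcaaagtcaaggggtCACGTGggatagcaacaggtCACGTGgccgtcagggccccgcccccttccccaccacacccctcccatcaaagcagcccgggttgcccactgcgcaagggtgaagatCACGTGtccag
Cdk6: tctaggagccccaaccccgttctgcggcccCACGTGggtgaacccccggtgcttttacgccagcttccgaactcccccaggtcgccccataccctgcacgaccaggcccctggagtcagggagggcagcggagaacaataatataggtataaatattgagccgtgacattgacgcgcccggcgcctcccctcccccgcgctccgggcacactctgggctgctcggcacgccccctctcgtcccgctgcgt
The Cdk4 window held 4 E-boxes, which began 172, 118, 98 and 11 bases before the start, and the Cdk6 window held 1, which began 220 bases before it. Of 32851 windows of this length over all genes, 6.02% held an E-box and 7 held at least 4. The RefSeq start of Cdk6 lay 2408 bases inside the outermost start of GENCODE M21. Among the other motifs, the FOXO site GTAAACA had 1 match, before a start of Ccnd3, and is found in 3.17% of all windows. The E2F sites TTTCCCGC, TTTCGCGC, TTTGCCGC and TTTGGCGC (1.86% of windows), the kappaB motif (7.25%), the STAT site TTCNNNGAA (7.02%) and the CHR element TTTGAA (16%) had no match in the members' windows. No window of Ccnd2 or Ccne2 was searched, so these results do not cover those genes. A match describes letters in a window and is not evidence of binding.

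Cdk4 (ENSMUSG00000006728, chr10:127063534-127067920, plus strand) was at 61.6, 79.3 and 65.5 CPM unstimulated, 229.3, 217.4 and 216.3 CPM stimulated, and 131, 141 and 150.1 CPM with the inhibitor. The 3 groups did not overlap, and the inhibitor libraries lay between the other two. The rise with stimulation was 3.21-fold (log2 1.68 ± 0.10, edgeR adjusted p = 4.4e-07). With IMD-0354 Cdk4 was 1.57-fold lower than with stimulation alone (log2 -0.65 ± 0.10, edgeR adjusted p = 5.6e-04) and 2.05-fold above the unstimulated level (log2 1.03 ± 0.10, edgeR adjusted p = 1.7e-05).

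Cdk6 (ENSMUSG00000040274, chr5:3341485-3531008, plus strand), the partner that predominates in many blood cells, was at 135, 213 and 116 CPM unstimulated, 816, 726 and 676 CPM stimulated, and 351, 337 and 377 CPM with the inhibitor. The order of the groups was that of Cdk4, again without overlap. Cdk6 rose 4.79-fold with stimulation (log2 2.26 ± 0.20, edgeR adjusted p = 5.2e-06). It was 2.08-fold lower with the inhibitor than with stimulation alone (log2 -1.06 ± 0.19, edgeR adjusted p = 0.00153) and 2.30-fold above the unstimulated level (log2 1.20 ± 0.19, edgeR adjusted p = 5.0e-04). Myc, whose values had been seen when it was chosen for mention here, was at 88.1 ± 1.20, 382 ± 37.2 and 283 ± 9.09 CPM in the 3 groups. It rose with stimulation (log2 2.12 ± 0.08, edgeR adjusted p = 3.3e-08) and was lower with the inhibitor (log2 -0.43 ± 0.08, edgeR adjusted p = 0.00174). Whether MYC has a part in the levels of the kinase genes was not tested.

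The 2 CIP/KIP genes moved in opposite directions with stimulation. Cdkn1a (ENSMUSG00000023067, chr17:29090976-29100727, plus strand), best known as a p53 target, was near the bottom of the range in unstimulated cells, with 3.37, 3.99 and 2.63 CPM from 135, 172 and 130 counts. It reached 223, 223 and 232 CPM in the stimulated libraries, and 30.7, 32.0 and 41.4 CPM with the inhibitor. The groups were far apart, with little spread inside each. Stimulation raised Cdkn1a 67.9-fold (log2 6.09 ± 0.18, edgeR adjusted p = 6.6e-09). With IMD-0354 it was 6.51-fold lower than in the stimulated group (log2 -2.70 ± 0.15, edgeR adjusted p = 1.3e-06) and still 10.4-fold above the unstimulated level (log2 3.38 ± 0.16, edgeR adjusted p = 2.2e-07).

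Cdkn1b (ENSMUSG00000003031, chr6:134920401-134925513, plus strand) encodes p27, the inhibitor that is abundant in resting lymphocytes. It was at 259, 209.7 and 290.2 CPM unstimulated, 114, 76.4 and 72.5 CPM stimulated, and 123, 112 and 107 CPM with the inhibitor. All unstimulated libraries were above all cultured ones, while stimulated library 1 lay within the range of the inhibitor libraries. Cdkn1b fell 2.88-fold with stimulation (log2 -1.53 ± 0.18, edgeR adjusted p = 3.4e-05) and was 2.22-fold below the unstimulated level with the inhibitor (log2 -1.15 ± 0.18, edgeR adjusted p = 3.6e-04). Between the 2 cultured groups it differed by log2 0.38 ± 0.17 (edgeR adjusted p = 0.105). Without stimulated library 1 that difference was 0.61 (edgeR adjusted p = 0.00714), and over the 20 alternatives the adjusted p ranged from 0.00714 to 0.324.

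Of the INK4 genes, Cdkn2d (ENSMUSG00000096472, chr9:21288410-21291407, minus strand) had the clearer pattern. Its levels were 31.5, 24.4 and 27.5 CPM unstimulated, 52.6, 52.8 and 63.1 CPM stimulated, and 10.9, 13.0 and 13.1 CPM with the inhibitor. The inhibitor libraries were thus below the unstimulated ones and not between the 2 other groups. Cdkn2d rose 2.02-fold with stimulation (log2 1.01 ± 0.13, edgeR adjusted p = 6.9e-05), was 4.56-fold lower with the inhibitor than without it (log2 -2.19 ± 0.14, edgeR adjusted p = 2.3e-06) and 2.26-fold below the unstimulated level (log2 -1.17 ± 0.13, edgeR adjusted p = 4.5e-05).

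Cdkn2c (ENSMUSG00000028551, chr4:109660876-109667189, minus strand), an E2F-responsive inhibitor gene, was at 7.59, 17.8 and 6.04 CPM unstimulated, 18.7, 16.6 and 18.7 CPM stimulated, and 4.55, 4.53 and 7.12 CPM with the inhibitor. The unstimulated group overlapped both other groups, through its library 2 on the stimulated side. The inhibitor group was 3.32-fold below the stimulated one (log2 -1.73 ± 0.37, edgeR adjusted p = 0.00363). Stimulation gave log2 0.78 ± 0.36 (edgeR adjusted p = 0.0781), and 1.40 without unstimulated library 2 (edgeR adjusted p = 3.7e-04). Against the unstimulated group the inhibitor group was lower by log2 -0.95 ± 0.36 (edgeR adjusted p = 0.0492), a call lost in 10 of 20 alternatives, with adjusted p from 2.0e-04 to 0.237. Without unstimulated library 2 that value was -0.33 (edgeR adjusted p = 0.237). The call was lost also on leaving out any 1 of the stimulated libraries, inhibitor library 1 or inhibitor library 2.

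**Figure D3:**
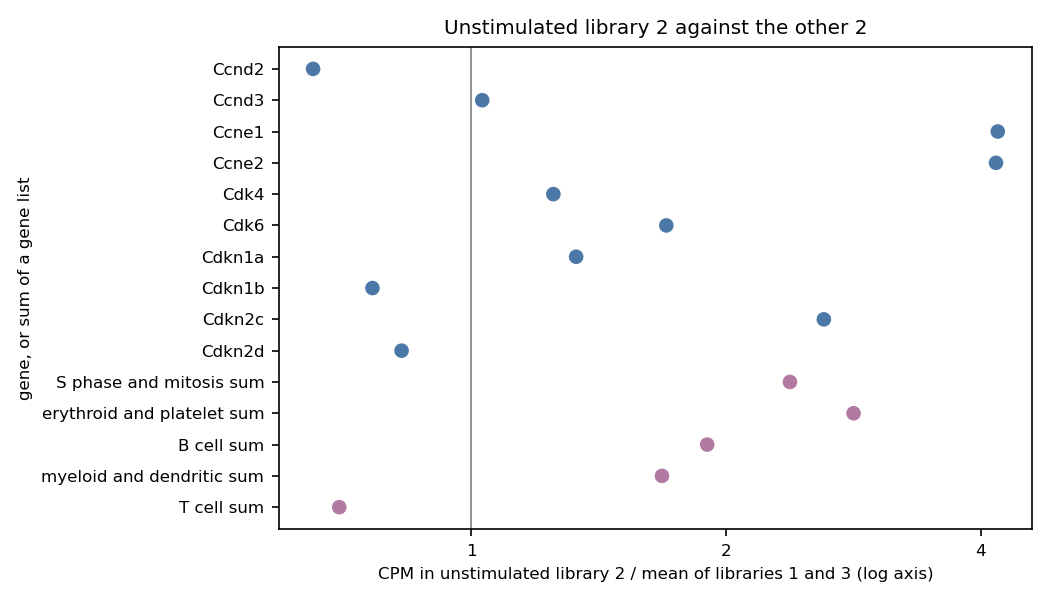
Ratio of unstimulated library 2 to the mean of unstimulated libraries 1 and 3 (log axis) for the 10 genes and for the summed CPM of 5 marker lists. Ccne1 (4.19) and Ccne2 (4.17) have the highest ratios of the 10 genes, while Ccnd2 (0.650) and the T cell markers (0.698) lie below 1.

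Unstimulated library 2 had a marked profile over the 10 genes. Relative to the mean of the other unstimulated libraries it held 4.19 times the Ccne1, 4.17 times the Ccne2, 2.61 times the Cdkn2c and 1.70 times the Cdk6, and 0.650 times the Ccnd2 and 0.764 times the Cdkn1b. Ccnd3 was level at 1.03 times. Of the 10 erythroid and platelet markers 8 were highest in library 2 of the unstimulated group and 2 in library 1. Chosen after their values were seen, the erythroid gene Alas2 was at 79.0, 210.0 and 6.87 CPM in unstimulated libraries 1, 2 and 3, and Klf1 at 8.96, 33.8 and 3.04 CPM, whereas the globin gene Hbb-bs was at 344, 202 and 6.69 CPM. In the stimulated and inhibitor libraries none of these exceeded 0.930 CPM. Tfrc, listed among the erythroid markers, is also made by activated T cells and alone gave 938 to 996 CPM in the stimulated libraries. The part of non-T cells in the unstimulated levels of the 10 genes was not tested. Inhibitor library 1 held 0.743 to 1.12 times the mean of the other inhibitor libraries for each of the 10 genes.

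Levels of different genes can be compared only per length, here as CPM per kilobase of merged exons (GENCODE M21). Merged exons pool all annotated transcripts of a gene, for example 21 transcripts and 8775 bases for Ccnd3. Where cells use shorter transcripts the per-length level is too low, so the order and shares below depend on the annotation. In unstimulated cells Ccnd2 was first at 67.8 ± 15.7 CPM per kilobase and overlapped Cdkn1b, second at 55.5 ± 8.91. Ccnd3 (34.5 ± 1.09) came next, then Cdk4 (21.2 ± 2.86) overlapping Cdkn2d (17.7 ± 2.25). Cdk6 (11.0 ± 3.70), Ccne1 (4.58 ± 4.10), Cdkn2c (3.90 ± 2.38), Ccne2 (2.13 ± 1.94) and Cdkn1a (0.938 ± 0.191) followed, each overlapping its neighbour. The resting profile was thus led by a D-type cyclin and p27 RNA, with Cdkn1a last.

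After stimulation Ccnd2 (76.7 ± 8.98 CPM per kilobase) overlapped Cdk4 (68.0 ± 2.21), and Cdkn1a had moved from the last place to the third (63.6 ± 1.45), above Cdk6 (52.9 ± 5.08). Ccnd3 (38.2 ± 1.26) overlapped Cdkn2d (35.7 ± 3.80), and Ccne1 (19.7 ± 1.90) overlapped Cdkn1b (19.3 ± 5.07), ahead of Ccne2 (10.1 ± 3.01) and Cdkn2c (6.69 ± 0.457). With the inhibitor Ccnd2 stood alone at 142 ± 0.793 CPM per kilobase. Cdk4 (43.4 ± 2.92) was a distant second, Cdk6 (25.4 ± 1.46) overlapped Cdkn1b (25.1 ± 1.79), and Ccnd3 (19.7 ± 1.79), Cdkn1a (9.76 ± 1.64), Cdkn2d (7.82 ± 0.765) and Ccne1 (7.06 ± 1.54) followed, the last pair overlapping. Ccne2 (3.03 ± 1.13) and Cdkn2c (2.01 ± 0.553) overlapped at the end.

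**Figure D4:**
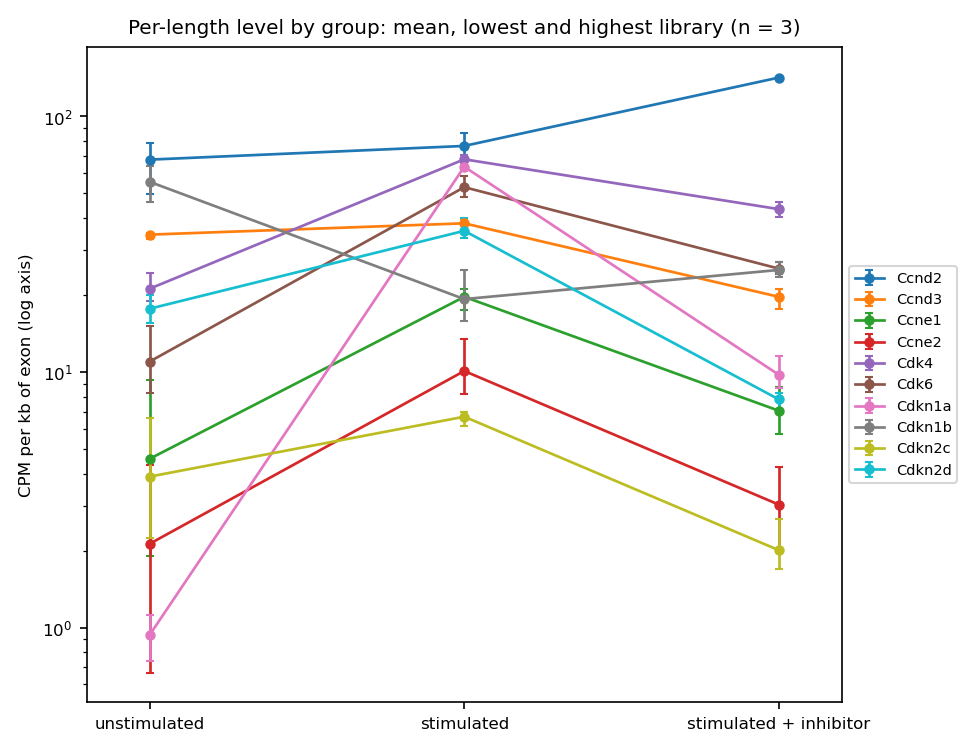
Mean CPM per kilobase of exon (log axis) of the 10 genes in each group, with bars from the lowest to the highest of 3 libraries. Cdkn1a moves from the lowest place in the unstimulated group (0.938) to the third in the stimulated group (63.6), and Ccnd2 is first in each group.

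Within each kind of gene, relatives outside the 10 were added and the per-length levels summed. The D-type cyclins together were at 105 ± 14.6, 115 ± 8.09 and 162 ± 2.00 CPM per kilobase in the unstimulated, stimulated and inhibitor groups. Ccnd2 made up 63.7%, 66.5% and 87.7% of that sum and Ccnd3 33.2%, 33.3% and 12.2%. The inhibitor group thus had the highest D-type cyclin sum with the smallest Ccnd3 share. The E-type cyclins summed to 6.71 ± 6.03 (mean 3.26 without library 2), 29.8 ± 1.13 and 10.1 ± 2.52, and Cdk4 with Cdk6 to 32.2 ± 6.43, 121 ± 7.23 and 68.8 ± 3.99 CPM per kilobase. CIP/KIP RNA summed to 56.9 ± 8.80, 83.0 ± 4.36 and 34.9 ± 1.06 CPM per kilobase, so the sum was higher in the stimulated than in the unstimulated libraries although Cdkn1b fell. Cdkn1a made up 1.71% of it in unstimulated, 76.8% in stimulated and 28.0% in inhibitor libraries. INK4 RNA summed to 21.7 ± 1.67, 42.5 ± 4.08 and 10.5 ± 1.42 CPM per kilobase. No test was made of these sums.

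**Figure D5:**
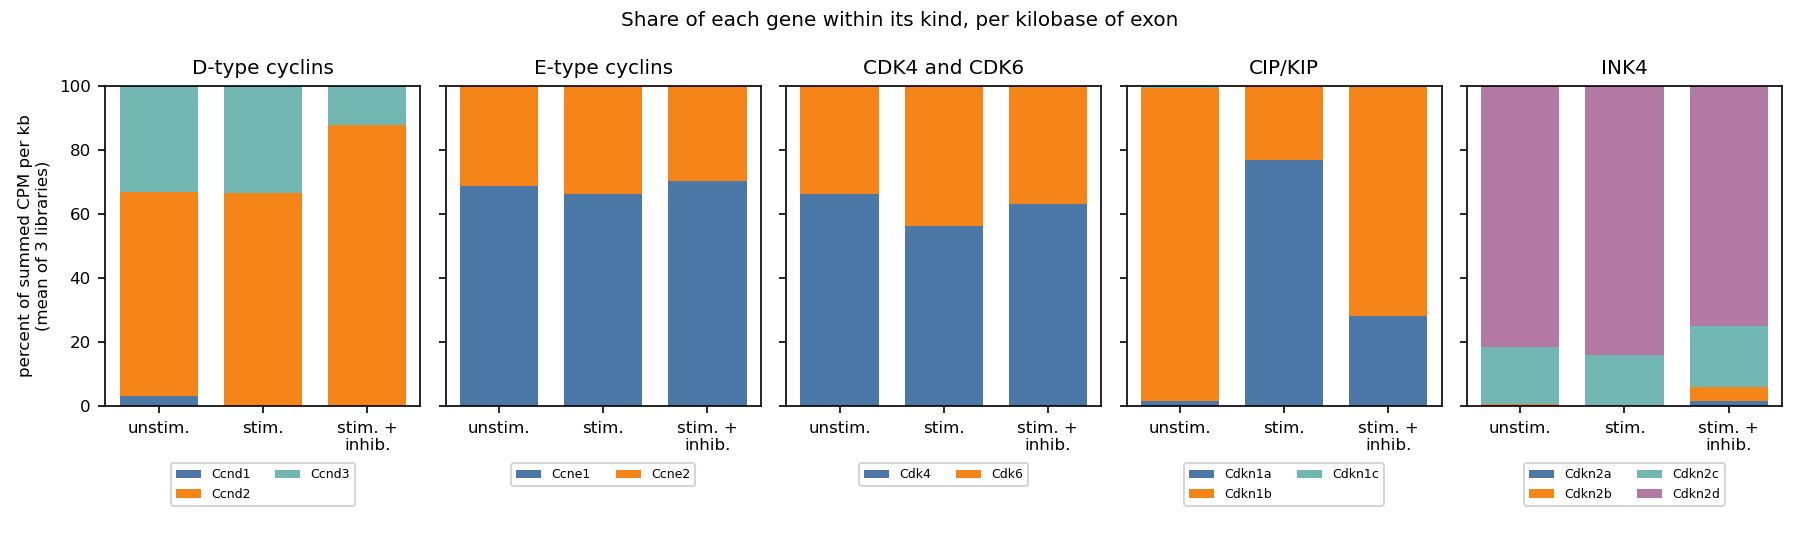
Mean share (percent) of each gene in the summed CPM per kilobase of its kind, by group. Cdkn1b holds 97.6% of the CIP/KIP sum in the unstimulated group and 23.1% in the stimulated group, and Ccnd2 holds 87.7% of the D-type sum in the inhibitor group.

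Whether the 2 genes of a kind changed unequally was tested on their log2 ratio of CPM within each library, which does not depend on scaling. An exact permutation test over the 3 groups was used (all assignments of the libraries, large F values only), adjusted over 5 pairs. These CPM are not per length, so the sign of a ratio does not rank its 2 genes. Per kilobase, Cdk4 was above Cdk6 in each group mean. Cdkn1a over Cdkn1b went from a log2 ratio of -6.21 ± 0.52 unstimulated to 1.40 ± 0.38 stimulated and -1.72 ± 0.32 with the inhibitor (exact permutation p = 0.00357, the smallest these assignments can give, adjusted p = 0.0179). Its groups did not overlap. Cdk4 over Cdk6 went from -1.12 ± 0.30 to -1.74 ± 0.09 and -1.33 ± 0.08 (exact permutation p = 0.0143, adjusted p = 0.0357), with every stimulated library below every other library. That call was lost on leaving out any single stimulated or inhibitor library, with adjusted p up to 0.101. Ccnd2 over Ccnd3 was 1.05 ± 0.39, 1.10 ± 0.20 and 2.95 ± 0.13 (exact permutation p = 0.0321, adjusted p = 0.0536), with every inhibitor library above every other library. It passed the threshold on leaving out any 1 of the unstimulated libraries, with an adjusted p of 0.0179 without library 2. The ratio of Ccne1 to Ccne2 was 0.75 ± 0.32, 0.61 ± 0.55 and 0.86 ± 0.40 (exact permutation p = 0.811, adjusted p = 0.811). Cdkn2c over Cdkn2d was -1.55 ± 0.96, -1.63 ± 0.13 and -1.20 ± 0.32 (exact permutation p = 0.668, adjusted p = 0.811), and without unstimulated library 2, which alone had a ratio of -0.45, the group means spread by 0.90 (exact permutation, adjusted p = 0.0179).

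Of 6 relatives outside the 10, Cdk2, the partner of the E-type cyclins, had the pattern of Cdk4, at 24.0 ± 5.65, 69.1 ± 2.98 and 38.4 ± 3.66 CPM. It rose with stimulation (log2 1.53 ± 0.16, edgeR adjusted p = 1.3e-05) and was lower with the inhibitor (log2 -0.85 ± 0.15, edgeR adjusted p = 0.00142). Ccna2, the cyclin of S phase and G2, was at 28.7 ± 31.6, 220.2 ± 6.11 and 20.2 ± 8.42 CPM, with a rise of log2 2.94 ± 0.67 (edgeR adjusted p = 0.00293) and a difference of log2 -3.44 ± 0.68 between the inhibitor and stimulated groups (edgeR adjusted p = 0.00245). Unstimulated library 2 held 65.1 CPM of Ccna2, against 13.0 and 7.99 CPM in libraries 1 and 3. Without it the rise was log2 4.39 (edgeR adjusted p = 2.7e-06), and the inhibitor group turned from log2 -0.50 against the unstimulated group (edgeR adjusted p = 0.534) to 0.95 (edgeR adjusted p = 0.0252). Ccnd1, the D-type cyclin that T cells hardly use, fell from 14.6 ± 1.65 to 0.730 ± 0.245 CPM (log2 -4.31 ± 0.30, edgeR adjusted p = 1.1e-06) and was at 0.726 ± 0.206 CPM with the inhibitor. The B cell and myeloid sums given above fell in the same comparison, and their part in the Ccnd1 level was not tested. Cdkn1c, which encodes p57, stayed under 1 CPM in every library and fell with stimulation (log2 -1.56 ± 0.55, edgeR adjusted p = 0.0297), a call lost on leaving out unstimulated library 1 or 3 or any 1 of the stimulated libraries (edgeR adjusted p = 0.0527 to 0.109). Cdkn2b was at 0.0920 ± 0.0812, 0.121 ± 0.0682 and 0.682 ± 0.462 CPM, and was higher in the inhibitor than in the stimulated group (log2 2.46 ± 0.80, edgeR adjusted p = 0.0302). Inhibitor library 3, at 1.21 CPM, was above libraries 1 and 2, at 0.488 and 0.348 CPM. Without it the difference was log2 1.75 (edgeR adjusted p = 0.164), and the call was lost also without any 1 of the stimulated libraries. Cdkn2a did not pass the filter on low counts and was at most 0.217 CPM in any library, where 3 counts are worth 0.0569 to 0.0813 CPM.

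The genes around the 10 were read from lists of the pathway, whose counts here and below are to be read beside those of all genes tested. Of all genes, 32.0% rose and 34.0% fell with stimulation. With the inhibitor 21.7% were higher and 22.8% lower than with stimulation alone, and 26.3% higher and 26.1% lower than unstimulated. Of 5 genes for CDK activation, 4 rose with stimulation and none fell, 2 were lower with the inhibitor than with stimulation alone, and all 5 were above the unstimulated level with the inhibitor. Without stimulated library 1 the count lower with the inhibitor was 3. Without inhibitor library 2 or 3 the count above the unstimulated level was 4. Cdc25a, the phosphatase that frees CDK2 of its inhibitory phosphate, rose by log2 1.94 ± 0.18 (edgeR adjusted p = 7.0e-06) and was lower by log2 -0.88 ± 0.17 with the inhibitor (edgeR adjusted p = 0.00246). Ccnh, the cyclin of the CDK-activating kinase, rose by log2 1.19 ± 0.10 (edgeR adjusted p = 4.9e-06). Of 9 genes for turnover of cyclins and inhibitors, 3 rose and 2 fell with stimulation, and 2 were higher and 3 lower with the inhibitor. These counts are near the shares of all genes tested. None fell with stimulation when stimulated library 1 was left out and 1 when stimulated library 3, unstimulated library 1 or unstimulated library 3 was. With the inhibitor 1 was lower without inhibitor library 2, and 2 were lower without stimulated library 1 or 3, inhibitor library 1 or 3, or unstimulated library 1. Skp2, the receptor that sends p27 to the proteasome, rose by log2 1.06 ± 0.26 (edgeR adjusted p = 0.00429) and was lower with the inhibitor by log2 -0.93 ± 0.26 (edgeR adjusted p = 0.0139), or -0.86 without inhibitor library 2 (edgeR adjusted p = 0.0537). Its cofactor Cks1b rose by log2 3.57 ± 0.45 (edgeR adjusted p = 6.0e-05) and was lower with the inhibitor by log2 -2.46 ± 0.43 (edgeR adjusted p = 0.00115). Without unstimulated library 2 the rise of Cks1b was log2 4.33 (edgeR adjusted p = 1.3e-06).

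Of 8 pocket protein and E2F genes, 4 rose and 1 fell with stimulation, and 2 were lower and none higher with the inhibitor. The count that rose was 5 without unstimulated library 2 or 3. The count lower with the inhibitor was 3 without unstimulated library 2. The activating factors E2f1 (log2 2.32 ± 0.44, edgeR adjusted p = 9.7e-04) and E2f3 (log2 2.05 ± 0.29, edgeR adjusted p = 1.3e-04) rose with stimulation, as did E2f4 (log2 1.16 ± 0.10, edgeR adjusted p = 3.5e-06), which acts with pocket proteins as a repressor. Without unstimulated library 2 the rise of E2f1 was log2 3.15 (edgeR adjusted p = 2.7e-06). E2f2 was lower with the inhibitor (log2 -1.86 ± 0.34, edgeR adjusted p = 0.00159). Rbl2, the pocket protein of resting cells, fell with stimulation (log2 -0.94 ± 0.09, edgeR adjusted p = 1.2e-05) and was below the unstimulated level also with the inhibitor (log2 -0.76 ± 0.09, edgeR adjusted p = 8.3e-05), with log2 0.17 ± 0.09 between the cultured groups (edgeR adjusted p = 0.158). Of 11 regulators known to act on these genes, 3 rose and 6 fell with stimulation, and 3 were higher and 3 lower with the inhibitor. The count that rose was 4 without stimulated library 1. The quiescence factor Klf2 fell by 7.28 ± 0.18 on the log2 scale (edgeR adjusted p = 2.6e-09), and was higher with the inhibitor than without it by log2 2.59 ± 0.15 (edgeR adjusted p = 1.7e-06). The antiproliferative gene Btg1 fell by 2.64 ± 0.12 on the log2 scale (edgeR adjusted p = 8.4e-08) and was higher with the inhibitor by log2 1.27 ± 0.12 (edgeR adjusted p = 2.3e-05).

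All 16 S phase and mitosis genes rose with stimulation and all 16 were lower with the inhibitor, and against the unstimulated group the inhibitor group had 8 higher and 2 lower. The last counts were 12 and 1 without unstimulated library 2, and 7 and 2 without unstimulated library 1. They were 6 and 2 without unstimulated library 3 or inhibitor library 3. Without inhibitor library 1 they were 8 and 1, and without inhibitor library 2 they were 8 and 0. The counts of 16 did not change on leaving out any single library. Their summed level was 567 to 1489 CPM in the unstimulated, 4728 to 4811 CPM in the stimulated and 1232 to 1785 CPM in the inhibitor libraries. The largest changes with the inhibitor were in mitotic genes: Ccnb2 (log2 -4.75 ± 0.63, edgeR adjusted p = 2.3e-04), Plk1 (log2 -4.46 ± 0.44, edgeR adjusted p = 4.0e-05) and Ccnb1 (log2 -4.24 ± 0.69, edgeR adjusted p = 7.8e-04). Those that were most above the unstimulated level with the inhibitor were replication genes, Gins2 (log2 1.90 ± 0.29, edgeR adjusted p = 3.4e-04), Mcm3 (log2 1.31 ± 0.23, edgeR adjusted p = 7.8e-04) and Mcm5 (log2 1.24 ± 0.27, edgeR adjusted p = 0.00295). How far the number of cycling cells has a part in the levels of the 10 genes was not tested.

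For each of the 10, the gene with the most similar pattern was sought among 8938 genes of at least 10 CPM on average, by Pearson's r of log2 CPM over the 9 libraries. These libraries form 3 groups, so a high r can come from the group means alone, and no p is given. The partner of Ccnd2 was Stat6 (r = 0.993), at group means of 237, 244 and 296 CPM, and that of Ccnd3 was Cdc25b (r = 0.996), at 64.2, 86.5 and 10.8 CPM. Ccne1 was matched by Wee1 (r = 0.998), the kinase that restrains CDK1 and CDK2, and Ccne2 by Esco2 (r = 0.992), which acetylates cohesin in S phase. Cdk4 was closest to Cinp (r = 0.998) and Cdk6 to Cbx5 (r = 0.996), a heterochromatin protein gene. Cdkn1a was closest to Uck2 (r = 0.999), a pyrimidine salvage kinase gene, with levels of 82.4, 265 and 155 CPM, a far smaller range than its own. Cdkn1b was closest to Nck1 (r = 0.988). Cdkn2c was matched by E2f2 (r = 0.992), at 53.6, 90.7 and 25.0 CPM, and Cdkn2d by Treml2 (r = 0.999), at 38.8, 79.1 and 15.8 CPM.

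Some of the 10 share exon sequence with genes of the opposite strand, and the strand setting of the counting is not given in the sources used here, so reads in the shared parts cannot be assigned with certainty. Exons of Ccne2 overlapped those of Ints8 by 609 bases, and Ints8, at 73.2 ± 1.11, 81.8 ± 4.33 and 62.9 ± 6.70 CPM, was above Ccne2 in each group mean. Cdk4 shared 641 bases with Tspan31, which was at 8.04 ± 0.593, 21.6 ± 1.28 and 21.1 ± 3.59 CPM. Ccnd3 shared 361 bases with Bysl, at 24.0 ± 2.32, 52.5 ± 6.84 and 51.2 ± 5.54 CPM. Bysl was below Ccnd3, and Tspan31 below Cdk4, in each group mean. Their part in the levels of Ccnd3, Ccne2 and Cdk4 was not tested.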

How the data were processed

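The authors deposited raw counts, 1 whole number per gene (49671 genes) and library (9). Total RNA was depleted of ribosomal RNA and made into stranded Illumina libraries, per the labels' protocols. The submitters' processing notes name the mm10 build, STAR 2.7.1a and featureCounts; the annotation release, strand setting and handling of mates are not stated there. Of counts from 1 to 10, 70.6% to 78.5% were even, so a fragment may largely count as 2 reads. Castaneus reads mapped to a C57BL/6 reference can lower counts. 0 columns were left unused.

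Names, positions and merged exon lengths came from GENCODE M21 (49412 of the gene identifiers matched) and promoter sequences from RefSeq (GRCm38.p6). Genes were kept with filterByExpr (18374 left) and fitted with edgeR 4.0.16 (R 4.3.3): TMM factors of 0.925 to 1.122, a quasi-likelihood fit of all 9 libraries with the group as its only term, 6 residual degrees of freedom, two-sided tests, Benjamini-Hochberg adjustment over all genes tested and a threshold of 0.05. Ratios within a library used a pseudocount of 0.1 CPM, pattern likeness one of 0.5 CPM. Alternatives were other scalings, filters and tools (DESeq2 1.42.0, limma 3.58.1), a replicate block, halved counts and leaving out each library. The fit was also run on simulated data, and no result of that run is used here.

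The members and lists were chosen with earlier results of these data known. Named were all 10 members, their 6 relatives, from each context list up to 3 called genes per comparison with the largest change and groups that did not overlap, and for each member the gene with the most similar pattern. Outside this rule, Myc, genes that share exon sequence with members and some cell type markers are named; Myc and the markers were picked after their values were seen. The marker lists were T cell, B cell, myeloid and dendritic, NK cell, and erythroid and platelet genes.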

Additional observations from a re-analysis of the deposited data

How the results depend on the processing

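Besides the settings described above, 20 alternatives were run. The direction of stimulated against unstimulated turned for Ccnd2 (log2 -0.05 with upper-quartile scaling, -0.003 with library totals and with a mean of at least 10 CPM, from -0.002 to 0.31 when each library was left out, the lowest without unstimulated replicate 2) and for Ccnd3 (-0.07 with upper quartiles, -0.04 with library totals and -0.04 with a mean of at least 10 CPM). Neither was called in any of the 20. The median of all genes moved from -0.05 to -0.27 with upper quartiles and to -0.24 with library totals. Requiring a mean of 10 CPM, which tests fewer genes, lowered the calls over all genes from 5880 higher and 6246 lower to 3463 and 3488 for stimulation, and from 4826 and 4800 to 2947 and 2920 for inhibitor against unstimulated. These are counts and not shares of the genes tested. The count of members higher with the inhibitor than with stimulation was 2 in place of 1 with upper-quartile scaling and with no filter, through Cdkn1b (edgeR adjusted p = 0.0464 and 0.0243), and ranged from 1 to 2 when each library was left out. Robust dispersion estimates, an alternative chosen after seeing the data, ended the calls of Ccne1 (edgeR adjusted p = 0.0680) and Ccne2 (0.0671) with the inhibitor. Same-numbered libraries correlated by -0.19 to 0.14 in their deviations. Between the stimulated and inhibitor groups every library correlated best with its own number (0.14, 0.11 and 0.08), a hint from the data and not from the design; with the unstimulated group this did not hold. As not every pair exceeded 0.1 and no label ties the numbers, the block was kept as an alternative. Under the replicate block, 5705 genes were higher and 6002 lower with stimulation, and Ccne2 with the inhibitor gave -1.67 (edgeR adjusted p = 0.0639). Permuted within replicate numbers, the ratio Cdk4 over Cdk6 (spread of group means 0.62) and Cdkn1a over Cdkn1b (7.61) had adjusted exact permutation p = 0.139 each. Few distinct assignments exist within replicate numbers, so a single pair cannot pass the threshold after adjustment, however wide its spread. No conclusion is drawn from these values. When each library was left out, the spread was 1.83 to 2.06 for Ccnd2 over Ccnd3, 0.46 to 0.77 for Cdk4 over Cdk6 and 0.26 to 0.90 for Cdkn2c over Cdkn2d. The cause of these changes was not tested, except where fewer genes entered the test. Leaving out each library for the genes outside the 10 was added after seeing the data. Depth limits genes near or under 1 CPM: Cdkn1c, Cdkn2a, Cdkn2b and, in the cultured groups, Ccnd1.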
